A study of Rattus norvegicus with 24 samples.

Results

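Acute phase genes were followed in rat kidney after ischemia and reperfusion. The set held 10 genes, namely Serpina3n, Hpx, Lbp, A2m, Apcs, Hp, Osmr, Stat3, Socs3 and Pim1, of 13337 gene symbols that the array's probe annotation names. Each gene had 1 probe, taken by its annotated symbol, and all 10 probes passed the filter on dim probes (a detection p under 0.05 on at least 3 of 24 arrays). Wistar rats aged 3 months were either sham-operated or had both kidneys made ischemic for 20 min and then reperfused for 6, 24 or 120 h. Total RNA of renal cortex and of renal medulla was hybridised separately, which gave 8 groups of 3 arrays. The sham group of each region was the reference, no genotype or drug differed between groups, and the labels name no sex and do not say whether replicates or regions came from separate animals. The p-values below therefore cover no more than the variation among these 24 samples, part of which may be technical.

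The acute phase response is a change in plasma protein output that the liver makes when cytokines of the IL-6 family are released after injury or infection. These cytokines signal through shared receptor chains and Janus kinases to the transcription factor STAT3, whose targets include secreted protease inhibitors and heme or lipid carriers as well as its own feedback inhibitor SOCS3. Tubule cells of an injured kidney are also known to make several of these proteins themselves. The arrays measured RNA of whole tissue pieces, so that fewer cells of a type and less RNA per cell cannot be told apart.

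Values are log2 of the background-corrected and quantile-normalized intensity, a scale on which 1 unit is a doubling. A difference is given ± its standard error (SE) from a linear model over all 24 arrays. The genes were chosen with differences from sham in these data already known, so those differences carry no p-value here. Adjusted p-values (limma, Benjamini-Hochberg over all 14390 probes kept, threshold 0.05) are given only for direct comparisons of medulla with cortex. Steps between times and differences between regional responses are made of those differences from sham, so they too are given without p, and counts of calls in them are descriptions. Each direct comparison of injured regions is a regional response difference plus the difference between the sham regions. Its adjusted p is therefore a description too. The direct comparisons share arrays with those that guided the choice and are no independent support. An exact test of 3 against 3 arrays could not give a p under 0.1.

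Some arrays stood apart within their groups. The array of sham medulla replicate 1 correlated better with the sham cortex mean (0.986) than with the other sham medulla arrays (0.971). Its summed level of proximal tubule markers was 83612, against 39135 and 58586 on the other sham medulla arrays and 90068 to 101916 in sham cortex. Cortex 6 h replicate 3 correlated at 0.971 with the other cortex 6 h arrays but at 0.974 with the sham cortex mean and 0.980 with the cortex 120 h mean. Cortex 120 h replicate 2 correlated best with its own group (0.984). Its sums of macrophage markers (7750, against 4762 and 3880) and of T and NK cell markers (953, against 446 and 458) were the highest of that group. Median intensities ran from 67.3 to 98.1 and 11173 to 12710 of 22523 probes were detected per array. Hepatocyte markers were read as a check on the source of the RNA. Of 15 listed, 13 had a probe. Apoh, F2, Serpinc1 and Cyp8b1 were above background on 24 of 24 arrays and Arg1 on 23, with F2 and Serpinc1 reaching 11.01 and 10.90. By contrast, Apoa2, Apob, Ttr, Tdo2 and Tat were above background on 0 of 24 arrays and albumin (Alb) on 1, while Ahsg was so on 2 and Cps1 on 6.

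Promoter sequence is shown for 4 genes whose patterns the results turn on, because the motifs of the IL-6 response can be read in it directly. Each line gives the 250 bases before the annotated start, 5′ to 3′, from RefSeq for build GRCr8, and 7 of the 10 genes matched that table. The Serpina3n window lies at chr6:129088142-129088391 on the plus strand, the Hpx window at chr1:169352156-169352405 on the minus strand, the Apcs window at chr13:87906509-87906758 on the minus strand and the Stat3 window at chr10:86363360-86363609 on the minus strand. Capitals mark matches, on either strand, to the STAT motif TTCNNNGAA, the type II IL-6 response element CTGGGAA and the C/EBP motif TTNNGNAAT.
Serpina3n: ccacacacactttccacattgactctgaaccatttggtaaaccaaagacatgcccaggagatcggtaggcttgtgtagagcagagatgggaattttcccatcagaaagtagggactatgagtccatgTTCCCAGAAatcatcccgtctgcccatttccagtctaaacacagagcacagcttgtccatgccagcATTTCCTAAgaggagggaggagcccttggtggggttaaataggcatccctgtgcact
Hpx: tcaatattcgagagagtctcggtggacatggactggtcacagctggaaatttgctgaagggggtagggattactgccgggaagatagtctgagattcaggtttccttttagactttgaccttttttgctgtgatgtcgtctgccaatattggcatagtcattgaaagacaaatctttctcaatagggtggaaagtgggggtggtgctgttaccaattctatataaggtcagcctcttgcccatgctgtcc
Apcs: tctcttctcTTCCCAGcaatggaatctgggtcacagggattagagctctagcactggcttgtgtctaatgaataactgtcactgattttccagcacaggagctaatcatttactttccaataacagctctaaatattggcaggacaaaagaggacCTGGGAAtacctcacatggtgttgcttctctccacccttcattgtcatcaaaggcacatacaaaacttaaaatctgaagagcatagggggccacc
Stat3: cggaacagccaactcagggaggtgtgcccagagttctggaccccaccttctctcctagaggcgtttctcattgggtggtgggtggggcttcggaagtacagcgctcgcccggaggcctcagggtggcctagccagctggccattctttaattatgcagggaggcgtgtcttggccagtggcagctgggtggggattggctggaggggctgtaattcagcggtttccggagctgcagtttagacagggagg
The Serpina3n window held a STAT match from base -123 to -115, with a CTGGGAA match overlapping it from -123 to -117, and a C/EBP match from -57 to -49. The Apcs window held CTGGGAA matches from -241 to -235 and from -95 to -89. The STAT motif was found in 1 of the 7 matched windows and in 7.67% of 33469 rat promoters of the same length. CTGGGAA was found in 2 of 7 and in 9.56% of promoters, and the C/EBP motif in 1 of 7 and in 10.9%. A match describes letters and is not evidence of binding.

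Against sham of the same region, the model called 2 of the 10 genes higher in cortex at 6 h (Stat3 and Pim1), where it called 8.87% of all probes higher. It called 4 higher at 24 h (Serpina3n, Hpx, Lbp and Stat3; 12.6% of probes) and 2 at 120 h (Serpina3n and Stat3; 2.45%). In medulla it called 6 higher at 6 h (Serpina3n, A2m, Lbp, Stat3, Socs3 and Hp; 17.3%), 5 at 24 h (the same without Hp; 17.2%) and 3 at 120 h (Serpina3n, A2m and Stat3; 7.69%). Apcs was called lower in medulla at each time, where 16.6%, 15.5% and 6.88% of probes were lower. The cortex count at 6 h was 1 without sham cortex replicate 1 or 3 or cortex 6 h replicate 2, and that at 120 h was 1 without sham cortex replicate 2 or cortex 120 h replicate 3. Over alternatives the calls of Hp in medulla at 6 h (6 of 35), Pim1 in cortex at 6 h (8 of 36) and Socs3 in medulla at 24 h (8 of 36) were among those lost most often. Nothing is read from these counts, since the genes were picked with these comparisons in view. The median difference of the 10 genes lay between 0.46 and 0.73 in the 6 comparisons, and that of all probes between -0.0037 and 0.042.

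Serpina3n, which encodes a secreted serine protease inhibitor of the antichymotrypsin family, was high after ischemia in both regions but on a different timetable. Sham cortex arrays read 5.06, 4.97 and 5.28, and sham medulla arrays 5.31, 5.22 and 5.98. At 6 h the cortex arrays read 5.72, 6.63 and 6.43, while the medulla arrays read 8.62, 8.65 and 9.43. Medulla was thus high on all arrays at 6 h and did not overlap cortex, which sat between sham and medulla. At 24 h cortex read 7.95, 8.32 and 9.39 and medulla 7.96, 8.32 and 7.34, and the regions overlapped. At 120 h medulla read 8.57, 8.47 and 9.01, and cortex 6.16, 8.05 and 7.82, with cortex replicate 1 well below the other cortex arrays. All injured arrays of a region lay above its sham arrays.

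The differences of Serpina3n from sham were 1.16 ± 0.43 at 6 h, 3.45 ± 0.43 at 24 h and 2.24 ± 0.43 at 120 h in cortex. In medulla they were 3.39 ± 0.43, 2.37 ± 0.43 and 3.18 ± 0.43. The highest of these is a 10.9-fold difference. The step of Serpina3n in cortex was 2.29 ± 0.43 between 6 and 24 h and -1.21 ± 0.43 between 24 and 120 h. In medulla all 24 h arrays lay below the 6 h arrays (difference -1.02 ± 0.43). A direct comparison of the regions at each time, added after seeing the data, found Serpina3n 6.22-fold higher in medulla than in cortex at 6 h (adjusted p = 0.000362). The regional difference was -0.68 ± 0.43 at 24 h (adjusted p = 0.37) and 1.34 ± 0.43 at 120 h (adjusted p = 0.0634). Without cortex 120 h replicate 2 the latter was 1.70 (adjusted p = 0.0257). Over 35 alternatives the 120 h difference lay between 0.75 and 1.70 (adjusted p up to 0.402), and 5 of them gave a call. The regional response difference (the change from sham in medulla minus that in cortex) was 2.24 ± 0.61 at 6 h.

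**Figure D1:**
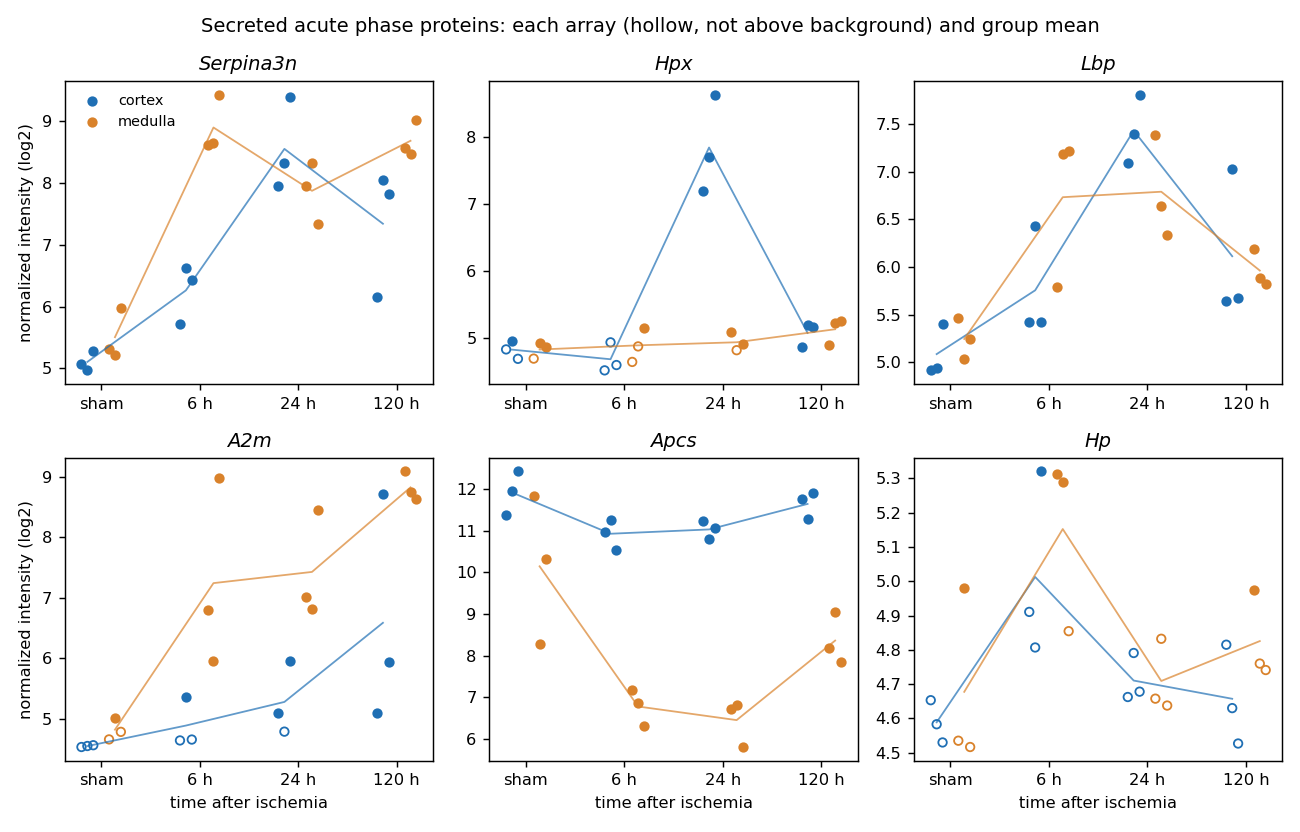
Normalized log2 intensity of the 6 secreted proteins on each of the 3 arrays per group (points; hollow where the probe was not above background), with lines joining group means over sham, 6, 24 and 120 h in cortex and medulla. Hpx stands out only in cortex at 24 h (7.19 to 8.63), while Apcs is lowest in medulla at 24 h (5.80 to 6.82).

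Hpx, the gene of hemopexin, which binds free heme in plasma, was raised in a single group. Cortex at 24 h read 7.19, 7.71 and 8.63, with raw intensities of 190.5 to 443.5. Sham cortex read 4.83, 4.96 and 4.69, of which 1 array was above background. No cortex array at 6 h was above background (4.52, 4.93 and 4.60). Cortex at 24 h was therefore clear of every other group. By 120 h cortex was back at 4.87, 5.19 and 5.17, which overlapped sham. Medulla read 4.69, 4.93 and 4.86 in sham, 4.64, 4.87 and 5.15 at 6 h, 5.08, 4.82 and 4.91 at 24 h and 4.90, 5.23 and 5.26 at 120 h. These medulla arrays stayed near the background throughout.

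The difference of Hpx from sham in cortex was 3.01 ± 0.24 at 24 h, an 8.08-fold difference, against -0.14 ± 0.24 at 6 h and 0.25 ± 0.24 at 120 h. In medulla the differences were 0.06, 0.11 and 0.30, each ± 0.24. Hpx in cortex was at least 7.42-fold higher at 24 h than at 6 h. For a group with no array above background, such a bound sets the other group's mean against the lowest signal detected on each array or the dim probe's own signal, whichever is higher. A bound of this kind compares means and takes no account of the spread among arrays. The brighter group's mean includes any of its own arrays that were not above background. Between 24 and 120 h the cortical Hpx step was -2.76 ± 0.24. The regional response difference of Hpx at 24 h was -2.91 ± 0.35 (medulla minus cortex), and Hpx alone of the 10 genes was called there, where 0.0347% of all probes were called lower. At 6 h the model called 0 of the 10 genes in this comparison (2 at an unadjusted p under 0.05; 0.202% of all probes called), and at 120 h 0 (0 at an unadjusted p under 0.05; 0.0139%). Without sham medulla replicate 2, 1 gene was called at 6 h and 2 at 24 h, Apcs being the addition. On the authors' own normalized values the Hpx difference from sham in cortex at 24 h was 1.58.

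Lbp encodes the lipopolysaccharide-binding protein, which hands bacterial lipid to the receptor chain CD14. It was highest in cortex at 24 h, where the arrays read 7.09, 7.40 and 7.81, against 4.92, 4.94 and 5.41 in sham cortex. Cortex at 6 h read 5.42, 6.43 and 5.42, and at 120 h 5.64, 7.03 and 5.67. Replicate 2 was the high array at both of these times, and all arrays after ischemia lay above the sham arrays. Medulla read 5.46, 5.03 and 5.24 in sham, 5.80, 7.19 and 7.22 at 6 h, 7.39, 6.64 and 6.34 at 24 h and 6.19, 5.88 and 5.82 at 120 h. No injured medulla array overlapped sham medulla.

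The differences of Lbp from sham were 0.67, 2.35 and 1.03 in cortex at 6, 24 and 120 h, and 1.49, 1.55 and 0.72 in medulla, each ± 0.40. The step of cortical Lbp was 1.68 ± 0.40 from 6 to 24 h, a call lost in 10 of 36 alternatives, and -1.32 ± 0.40 from 24 to 120 h. With Serpina3n and Hpx, Lbp made 3 of the 10 genes that were called higher in cortex at 24 than at 6 h, a step in which 1.31% of all probes were higher. From 24 to 120 h Hpx alone was called lower (1.45% of all probes), and Lbp with it when cortex 120 h replicate 2 was left out. Lbp did not pass in the regional comparisons, with the largest difference at 6 h (0.98 ± 0.40, adjusted p = 0.108).

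A2m encodes alpha-2-macroglobulin, a broad protease inhibitor that is a strongly induced plasma acute phase protein in rats. The probe was not above background on any sham cortex array (4.54, 4.55 and 4.57) and was so on 1 sham medulla array (4.66, 5.02 and 4.79). Medulla after ischemia read 6.80, 5.95 and 8.97 at 6 h, 7.01, 6.82 and 8.45 at 24 h and 9.09, 8.75 and 8.63 at 120 h. Replicate 3 was far above the others at 6 and at 24 h, whereas the 120 h arrays lay close together, and no injured medulla array overlapped sham. Cortex read 4.65, 5.37 and 4.66 at 6 h, 5.10, 4.79 and 5.95 at 24 h and 5.10, 8.71 and 5.94 at 120 h. The high cortical array at 120 h is replicate 2, the array with the highest macrophage and T and NK cell marker sums of its group. Of the high medulla arrays, replicate 3 had the lowest macrophage sum of its group at 6 h (6581) and the highest at 24 h (10558).

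The differences of A2m from sham medulla were 2.42 at 6 h, 2.60 at 24 h and 4.0 at 120 h, each ± 0.72, the widest upward difference among the 10 genes. Without medulla 6 h replicate 3 the 6 h difference was 1.55, and on the authors' normalized values the 120 h difference was 2.34. In cortex A2m was at least 1.01-fold higher than sham at 6 h, at least 1.32-fold at 24 h and at least 3.27-fold at 120 h. The cortex arrays above background were 1, 2 and 3 at these times. The fitted differences were 0.34, 0.73 and 2.03 at 6, 24 and 120 h, each ± 0.72. The last was 0.97 without cortex 120 h replicate 2. Medulla exceeded cortex by 2.35 ± 0.72 at 6 h (adjusted p = 0.0303), and the later differences of 2.15 ± 0.72 at 24 h and 2.24 ± 0.72 at 120 h did not pass (adjusted p = 0.0574 and 0.0646). Without cortex 120 h replicate 2 the 120 h difference was 3.30 (adjusted p = 0.00268). Over 35 alternatives it lay between 1.40 and 3.30 (adjusted p up to 0.371), and 5 of them gave a call. The 6 h call was lost under 9 of 35 alternatives, among them without medulla 6 h replicate 3 (1.48, adjusted p = 0.188), without cortex 6 h replicate 1 (adjusted p = 0.0816) and without cortex 6 h replicate 3 (adjusted p = 0.0783). The steps of A2m between times in medulla were 0.19 ± 0.72 from 6 to 24 h and 1.40 ± 0.72 from 24 to 120 h.

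Macrophage marker sums were higher on every injured medulla array than on any sham medulla array, in the groups where Serpina3n, Lbp and A2m were also high. Medullary Lbp was lower on all arrays at 120 h than at 24 h, and these sums overlapped between the 2 times. Of 14 listed macrophage markers 11 had a probe and 10 were kept. Their summed level was 2173 to 2908 on sham medulla arrays, 6581 to 9298 at 6 h, 6968 to 10558 at 24 h and 6378 to 8919 at 120 h. In cortex the sum was 1505 to 2474 in sham, 2469 to 6352 at 6 h, 3504 to 6301 at 24 h and 3880 to 7750 at 120 h. Itgam was below background on all sham arrays, and Cd163 was not kept. The summed level of 9 kept T and NK cell markers, of 10 listed, was 300 to 337 in sham medulla and 524 to 581, 437 to 739 and 550 to 786 in medulla at 6, 24 and 120 h. In cortex it was 306 to 330 in sham and 320 to 443, 399 to 479 and 446 to 953 after ischemia. Not every marker followed its sum. From sham to 6 h mean Ptprc went from 5.59 to 5.71 in medulla and from 5.63 to 5.24 in cortex. Cd4 fell in both (5.005 to 4.80 and 5.18 to 4.88), and the other T and NK cell markers rose. Mrc1 went from 5.54 to 5.56 in medulla, where the other macrophage markers rose, and from 5.50 to 5.07 in cortex. Of 10 neutrophil markers 5 were kept, with sums of 173 to 323 in sham medulla and 416 to 1135 at 6 h, and of 134 to 215 in sham cortex and 409 to 638 at 6 h. At 24 and 120 h they were 179 to 269 and 170 to 217 in medulla, and 219 to 352 and 162 to 317 in cortex. From sham to 6 h in medulla the means of S100a8 (5.91 to 8.88) and Il1r2 (4.70 to 6.65) rose. Camp went from 4.85 to 5.01, while Mpo (5.82 to 4.83) and Mmp8 (4.89 to 4.64) fell. Cd3d, Cd3e and Gzmb were below background on all sham cortex arrays, as were Mpo and Mmp8. Hpx was below background on all cortex arrays at 6 h, where the macrophage sum ran from 2469 to 6352. The part of these cells in the results was not tested.

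Apcs encodes serum amyloid P component, a pentraxin that is an acute phase protein in mice. It was bright in uninjured cortex and low in injured medulla. Sham cortex read 11.38, 11.96 and 12.43, and sham medulla read 11.85, 8.28 and 10.32. Replicate 1, the array that resembled cortex, was the highest of the sham medulla arrays. Injured medulla read 7.17, 6.86 and 6.31 at 6 h, 6.73, 6.82 and 5.80 at 24 h and 8.19, 9.05 and 7.85 at 120 h. The 6 and 24 h arrays lay below every sham medulla array, while the 120 h arrays overlapped sham replicate 2. Cortex read 10.98, 11.26 and 10.55 at 6 h, 11.24, 10.80 and 11.06 at 24 h and 11.76, 11.28 and 11.90 at 120 h.

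The differences of Apcs from sham medulla were -3.37 at 6 h, -3.70 at 24 h and -1.79 at 120 h, each ± 0.57. Without sham medulla replicate 1 they were -2.52, -2.85 and -0.94, and the last was no longer called. The Apcs call at 120 h was lost under 13 of 36 alternatives. In cortex they were -0.99, -0.89 and -0.27, each ± 0.57. Apcs was 17.8-fold lower in medulla than in cortex at 6 h (adjusted p = 7.77e-05), 24.0-fold lower at 24 h (adjusted p = 4.57e-05) and 9.75-fold lower at 120 h (adjusted p = 0.00156). In sham the regional difference was -1.77 ± 0.57 (adjusted p = 0.143), and -2.62 without sham medulla replicate 1 (adjusted p = 0.00306). Over 35 alternatives this sham difference lay between -2.62 and -0.84 (adjusted p up to 0.787), and 2 of them gave a call. In this comparison of the sham regions the model called 0 of the 10 genes, 1 at an unadjusted p under 0.05, beside 1.39% of all probes. The regional response difference of Apcs was -2.38 ± 0.81 at 6 h and -2.81 ± 0.81 at 24 h. Medullary Apcs differed between 24 and 120 h by 1.91 ± 0.57, higher on all 120 h arrays, and was called when sham medulla replicate 1 was left out.

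Summed proximal tubule markers, like Apcs, were lower in medulla at 6 and 24 h than in sham medulla. Of 12 listed, 11 had a probe and were kept. Their summed level was 39135 to 83612 on sham medulla arrays, 7495 to 27668 at 6 h, 4896 to 25867 at 24 h and 19994 to 39747 at 120 h. In cortex it was 90068 to 101916 in sham, 68841 to 81856 at 6 h, 38085 to 66291 at 24 h and 61415 to 79753 at 120 h. Within cortex the sum and the mean of Apcs were both highest in sham. Mean Apcs was 11.92 there, against 10.93, 11.03 and 11.65 at 6, 24 and 120 h. Single arrays of a group did not always follow the same order. The sham array with the highest sum (101916) had the lowest Apcs of its group (11.38). Cortex 24 h replicate 3, with the lowest cortical sum (38085), read 11.06. At 120 h replicate 2 was the lowest of its group in both (61415 and 11.28). Slc7a13 was the brightest of these markers in medulla at 6 and 24 h (means 13.43 and 13.07, against 14.54 in sham). Slc5a12 and Acmsd were below background on all medulla arrays at 6 h, as was Slc5a12 at 24 h. The part of this marker loss in the Apcs result was not tested.

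**Figure D2:**
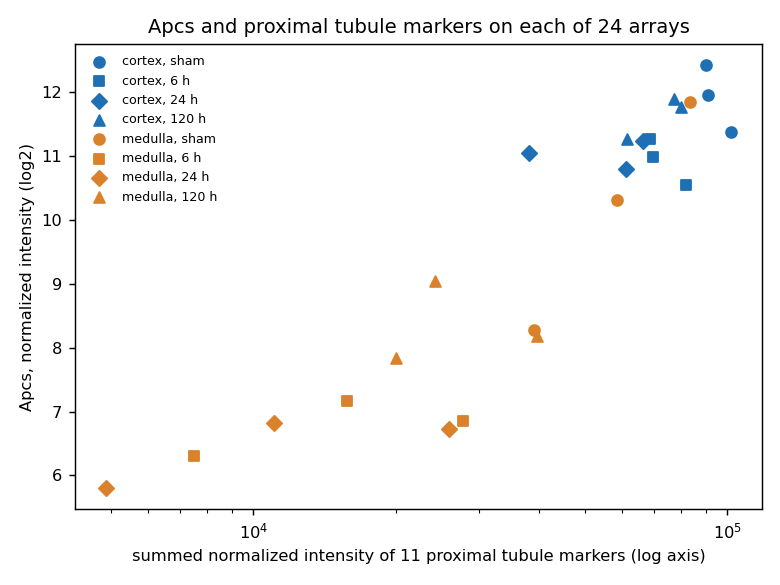
Normalized log2 intensity of Apcs against the summed normalized intensity of 11 proximal tubule markers (log axis), 1 point for each of 24 arrays, coloured by region and shaped by time. Sham medulla replicate 1 (83612, 11.85) sits among the cortex arrays, and the medulla arrays at 6 and 24 h lie at the lower left, with Apcs from 5.80 to 7.17.

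The direct comparison of injured medulla with injured cortex called 2 of the 10 genes higher at 6 h (Serpina3n and A2m; 7.87% of all probes) and Apcs lower (7.77%). At 24 h it called Apcs and Hpx lower (6.14% of all probes). Hpx differed by -2.90 ± 0.24 there. Since its sham regions differed by 0.0015, this value restates the regional response difference of -2.91 and is given without p. At 120 h it called Apcs lower (3.89%). The total at 6 h was 5 without medulla 6 h replicate 1, and that at 120 h was 3 without cortex 120 h replicate 2 and 2 without medulla 6 h replicate 2 or 3 or cortex 24 h replicate 3.

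Hp encodes haptoglobin, which captures free hemoglobin. Its probe was above background on 5 of 24 arrays and never exceeded 5.32. Cortex at 6 h read 4.91, 4.81 and 5.32, against 4.65, 4.58 and 4.53 in sham cortex, where no array was above background. Hp was there at least 1.10-fold higher than sham, with 1 of the 3 cortex arrays at 6 h above background. Medulla read 5.31, 5.29 and 4.85 at 6 h and 4.53, 4.98 and 4.52 in sham, and these groups overlapped. The medullary difference at 6 h was 0.48 ± 0.16, and the later differences were 0.03 and 0.15. No Hp array was above background in medulla at 24 h, nor in cortex at 24 or 120 h.

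**Figure D3:**
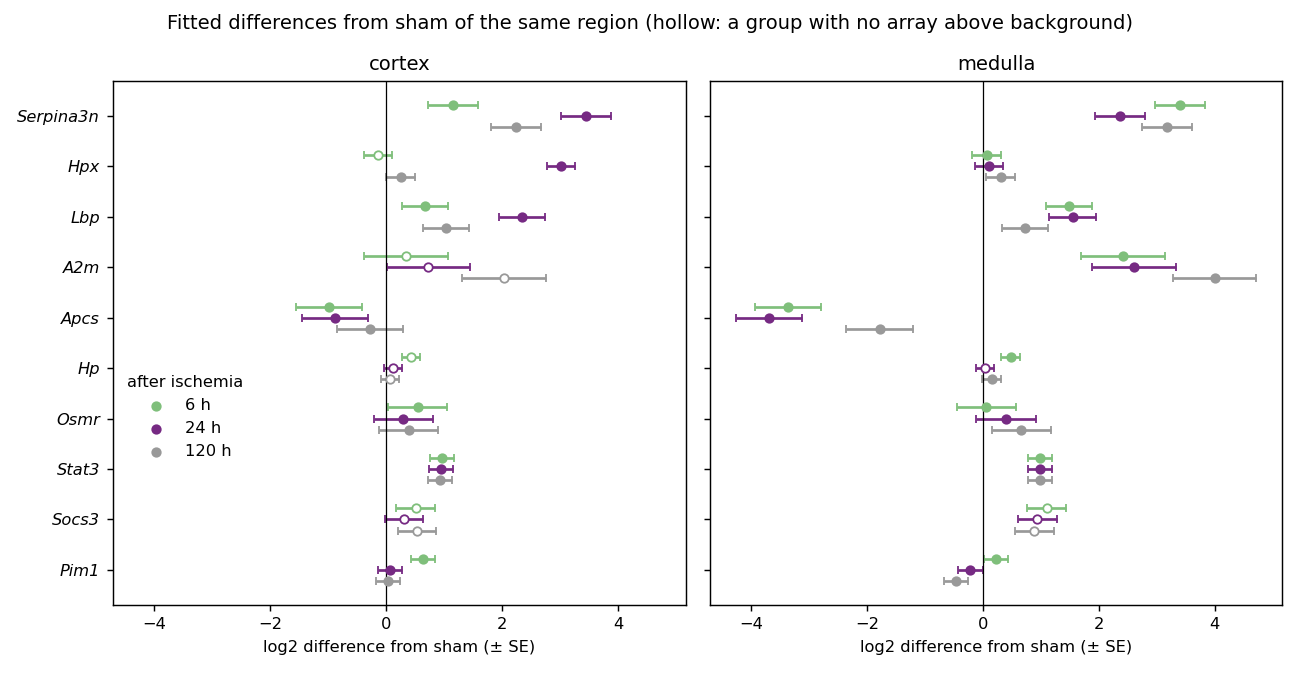
Fitted log2 differences from sham of the same region (points; bars, ± SE) for the 10 genes at 6, 24 and 120 h, in cortex (left) and medulla (right) on the same scale; hollow points have a group with no array above background. Stat3 lies between 0.93 and 0.99 in all 6 comparisons, while Apcs reaches -3.70 in medulla.

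Among the signalling genes, Osmr encodes a receptor chain for oncostatin M, a cytokine of the IL-6 family. Its sham arrays read 5.72, 5.19 and 5.82 in cortex and 5.99, 5.44 and 5.67 in medulla. Injured cortex ran from 4.97 to 7.31 and injured medulla from 4.80 to 6.69, and 1 medulla array at 6 h was not above background. Medulla at 120 h (6.23, 6.69 and 6.15) was the only injured group whose arrays all lay above those of its sham group. The differences of Osmr from sham lay between 0.06 and 0.66, each ± 0.51, which is smaller than 2 SE in all 6 comparisons. The highest reading, 7.31, is cortex 6 h replicate 3, without which the Osmr difference at that time was -0.06.

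Stat3, the transcription factor that carries the IL-6 family signal, had a small and even difference. Sham cortex read 8.55, 8.12 and 8.61, and sham medulla 8.85, 8.64 and 8.78. Cortex read 9.04, 9.39 and 9.73 at 6 h, 9.41, 9.26 and 9.43 at 24 h and 9.18, 9.27 and 9.61 at 120 h. Medulla read 9.79, 9.85 and 9.58 at 6 h, 9.90, 9.42 and 9.90 at 24 h and 9.29, 9.90 and 10.05 at 120 h. Every injured array lay above every sham array of its region. The differences from sham were 0.96, 0.94 and 0.93 in cortex and 0.98, 0.98 and 0.99 in medulla, each ± 0.21, or 1.90-fold to 1.98-fold. The regional response differences of Stat3 were 0.02 ± 0.29, 0.04 ± 0.29 and 0.06 ± 0.29 at 6, 24 and 120 h. Its steps between times were between -0.02 and 0.01, each ± 0.21.

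Socs3, the feedback inhibitor that STAT3 induces, was not above background on any sham array of either region (4.65, 4.60 and 4.79 in cortex, 4.80, 4.54 and 4.80 in medulla). Medulla read 6.46, 5.13 and 5.85 at 6 h, 5.50, 5.47 and 5.98 at 24 h and 5.45, 5.21 and 6.14 at 120 h. All of these arrays were above the sham medulla arrays. Socs3 in medulla was at least 1.94-fold higher than sham at 6 h, at least 1.74-fold at 24 h and at least 1.68-fold at 120 h. Cortex read 4.66, 5.09 and 5.81 at 6 h, 4.78, 4.67 and 5.53 at 24 h and 4.99, 4.98 and 5.66 at 120 h, and overlapped sham at 6 and 24 h. The bounds in cortex were at least 1.24-fold, at least 1.08-fold and at least 1.26-fold, with 2, 1 and 3 arrays above background. The fitted differences of Socs3 were 0.51, 0.31 and 0.53 in cortex and 1.10, 0.94 and 0.89 in medulla, each ± 0.33. Medulla and cortex did not differ past the threshold for Socs3 at any time (adjusted p = 0.234, 0.233 and 0.569).

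Pim1 encodes a serine/threonine kinase that is a known STAT target. Cortex at 6 h read 6.46, 6.42 and 5.79, against 5.35, 5.79 and 5.61 in sham cortex, so that replicate 3 reached the top of the sham range. Medulla read 5.57, 5.42 and 5.74 in sham, 6.24, 5.51 and 5.64 at 6 h, 5.35, 5.40 and 5.33 at 24 h and 5.06, 4.91 and 5.38 at 120 h. The medulla arrays at 24 and 120 h lay below all sham medulla arrays. The differences of Pim1 from sham were 0.64, 0.06 and 0.03 in cortex and 0.22, -0.22 and -0.46 in medulla, each ± 0.21. Without cortex 6 h replicate 3 the Pim1 difference at that time was 0.85. Its step in cortex from 6 to 24 h was -0.57 ± 0.21. Across the 10 genes, the model called 0 between 6 and 24 h in medulla (3 at an unadjusted p under 0.05; 1.4% of all probes called) and 0 between 24 and 120 h (1 at an unadjusted p under 0.05; 3.91%).

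**Figure D4:**
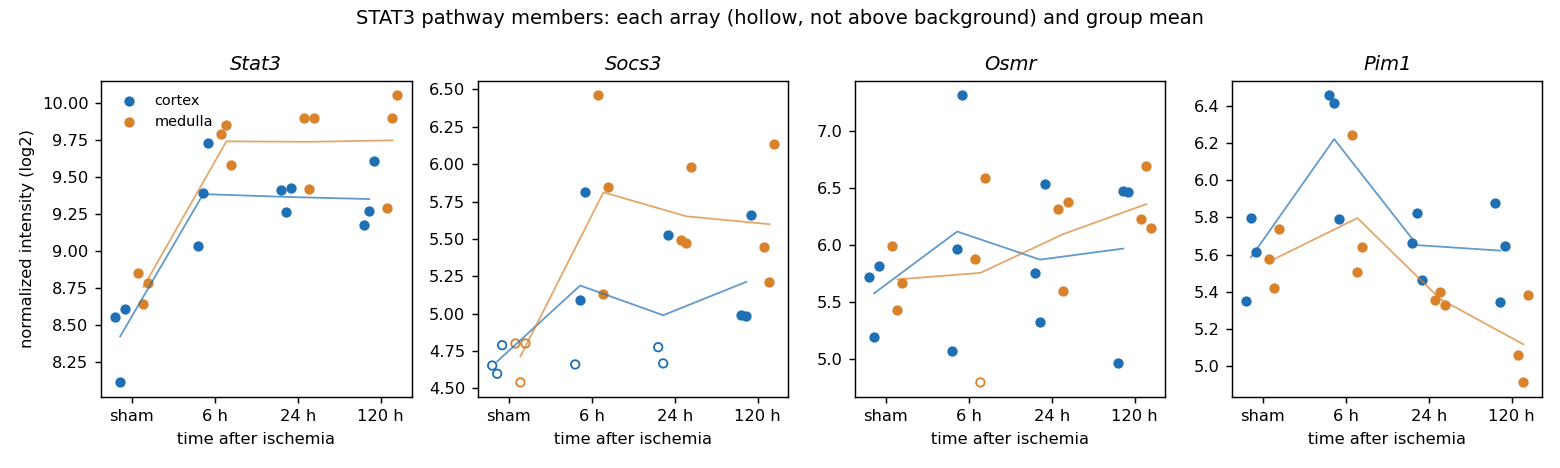
Normalized log2 intensity of Stat3, Socs3, Osmr and Pim1 on each of the 3 arrays per group (points; hollow where not above background), with lines joining group means over sham, 6, 24 and 120 h. Stat3 steps up by 6 h in both regions and stays level, and Socs3 is below background on all 6 sham arrays.

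For genes whose group means spanned at least 1 unit, the 2 most similar genes on the array were found by the root mean square difference of the 8 centred group means, in log2 units. Hpx was nearest to Reg3g, a secreted antibacterial lectin (0.45), and Kctd19 (0.51), which had cortex 24 h means of 6.47 and 6.94. Serpina3n was nearest to A3galt2 and the transcription factor gene Runx1 (both 0.58), and Lbp to Mdc1 and H2ax, both of which act at DNA breaks (both 0.25). A2m was nearest to the cholesterol exporter gene Abcg1 (0.44) and to Grem1, an inhibitor of bone morphogenetic proteins (0.51). Apcs was nearest to Slc13a3, a dicarboxylate transporter gene on the tubule marker list (0.23), and G6pc1, a gene of glucose production (0.29). Stat3 was nearest to the tyrosine phosphatase gene Ptpn1 (0.07) and Lsr (0.10), Socs3 to Fam3c and the adhesion gene Selp (both 0.08), and Pim1 to Nfasc (0.07) and Or1o11 (0.08). These distances are descriptions over 8 means that share arrays.

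The wider pathway was read from 6 lists of 116 other genes, of which 94 had a probe and 81 were tested. In cortex 12 of the 81 were higher and 5 lower at 6 h, 15 and 8 at 24 h and 7 and 1 at 120 h. In medulla 22 were higher and 11 lower at 6 h, 19 and 14 at 24 h and 15 and 5 at 120 h. Over all probes the share called in either direction was 19.6%, 26.2% and 5.65% in cortex and 33.8%, 32.7% and 14.6% in medulla. Without sham cortex replicate 1 or cortex 6 h replicate 2 the total in cortex at 6 h was 9. In cortex at 120 h it was 5 without sham cortex replicate 1 and 3 without cortex 120 h replicate 2, and in medulla at 120 h 12 without sham medulla replicate 1 and 13 without medulla 120 h replicate 2. The median difference of the 81 genes lay between 0.05 and 0.22. The lists were written with earlier results of these data known, so differences of the genes named from them are given without p.

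Of 8 tested cytokines and receptors of the IL-6 family, 2 were higher in medulla at each time, and Ctf1 (cardiotrophin 1) was lower at 24 h (-0.74 ± 0.25). Of all probes 17.3%, 17.2% and 7.69% were called higher in medulla at 6, 24 and 120 h, and 15.5% lower at 24 h. In cortex 0, 1 and 1 of the 8 were higher at 6, 24 and 120 h, beside 8.87%, 12.6% and 2.45% of all probes. Cntf, a cytokine better known from nerve, was higher in medulla by 1.77, 1.91 and 2.03 at 6, 24 and 120 h, each ± 0.33. The cortical differences of Cntf were 0.12, 1.14 and 1.49, each ± 0.33. Il6r, the receptor for IL-6, was higher by 1.25 ± 0.27 in medulla at 24 h. Il6 was not above background on any sham array and in medulla at 6 h was at least 1.57-fold higher, and did not pass the threshold there. Of 22 tested genes of JAK-STAT signalling and its inhibitors, 3 were higher and 3 lower in cortex at 6 h, and 2 and 6 at 24 h. In medulla 5 were higher and 3 lower at 6 h and again at 24 h. The shares of all probes in medulla were 17.3% higher and 16.6% lower at 6 h, and 17.2% and 15.5% at 24 h. In cortex 19.6% and 26.2% of all probes were called in either direction at 6 and 24 h. Pias1, an inhibitor of activated STAT, was lower in medulla at 6 h (difference -1.61 ± 0.24). Cish, a relative of Socs3, was lower in medulla at 24 h (difference -1.46 ± 0.30), and Socs2 was lower in cortex at 24 h (difference -1.11 ± 0.33). Ptpn6, a phosphatase of blood cells that dampens cytokine signals, was higher by 1.17 ± 0.24 in medulla at 24 h, where macrophage marker sums were also high.

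Of 17 tested STAT3 targets and acute phase transcription factors, 3 were higher and 3 lower in medulla at 6 h, and 1 and 4 at 24 h. Of all probes 17.3% were higher and 16.6% lower there at 6 h, and 17.2% and 15.5% at 24 h. Hnf4a, a regulator of liver and proximal tubule genes, was lower in medulla at 24 h (difference -2.64 ± 0.45), the group with the lowest tubule marker sums. The immediate early genes Fos and Junb were higher in medulla at 6 h, by 2.50 ± 0.69 and 1.99 ± 0.34. Vegfa, a vascular growth factor, was lower in cortex at 24 h (difference -2.24 ± 0.32). Of 14 other positive acute phase proteins, 2, 5 and 3 were higher in cortex at 6, 24 and 120 h, and 7, 5 and 5 in medulla, where 2 were lower at each time. The shares of all probes called higher were 8.87%, 12.6% and 2.45% in cortex and 17.3%, 17.2% and 7.69% in medulla. In medulla 16.6%, 15.5% and 6.88% of all probes were called lower. The fibrinogen chains Fgb and Fgg were higher in cortex at 24 h by 6.01 ± 0.60 and 4.98 ± 0.65. Lcn2, the lipocalin that binds iron carriers of bacteria, was higher by 4.37 ± 0.54 in medulla at 120 h. Agt, the angiotensinogen gene, was lower in medulla at 24 h (difference -3.23 ± 0.52).

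Of 6 tested negative acute phase proteins, 2 were lower in medulla at 6 h, 2 at 24 h and 1 at 120 h, beside 16.6%, 15.5% and 6.88% of all probes. Gc, which carries vitamin D, was lower at 24 h (difference -2.99 ± 0.69) and so was Fetub (difference -1.86 ± 0.36). Of 14 tested partners and receptors of the secreted proteins, 5 were higher in cortex at 6 and at 24 h and 2 at 120 h. In medulla 5, 6 and 5 were higher, and 1 was lower at 6 h and 2 at 24 h. Probes called higher made up 8.87%, 12.6% and 2.45% of all probes in cortex and 17.3%, 17.2% and 7.69% in medulla. Hmox1, the heme oxygenase that breaks down heme, was higher by 3.32 ± 0.60 in medulla at 6 h. Cd14 and Tlr2, receptors on the path from LBP, were higher there by 2.67 ± 0.34 and 2.22 ± 0.29, and Cd14 is also on the macrophage list. Cubn, the cubilin receptor of proximal tubule, was lower there (difference -2.87 ± 0.44) and belongs to the tubule marker list.

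**Figure D5:**
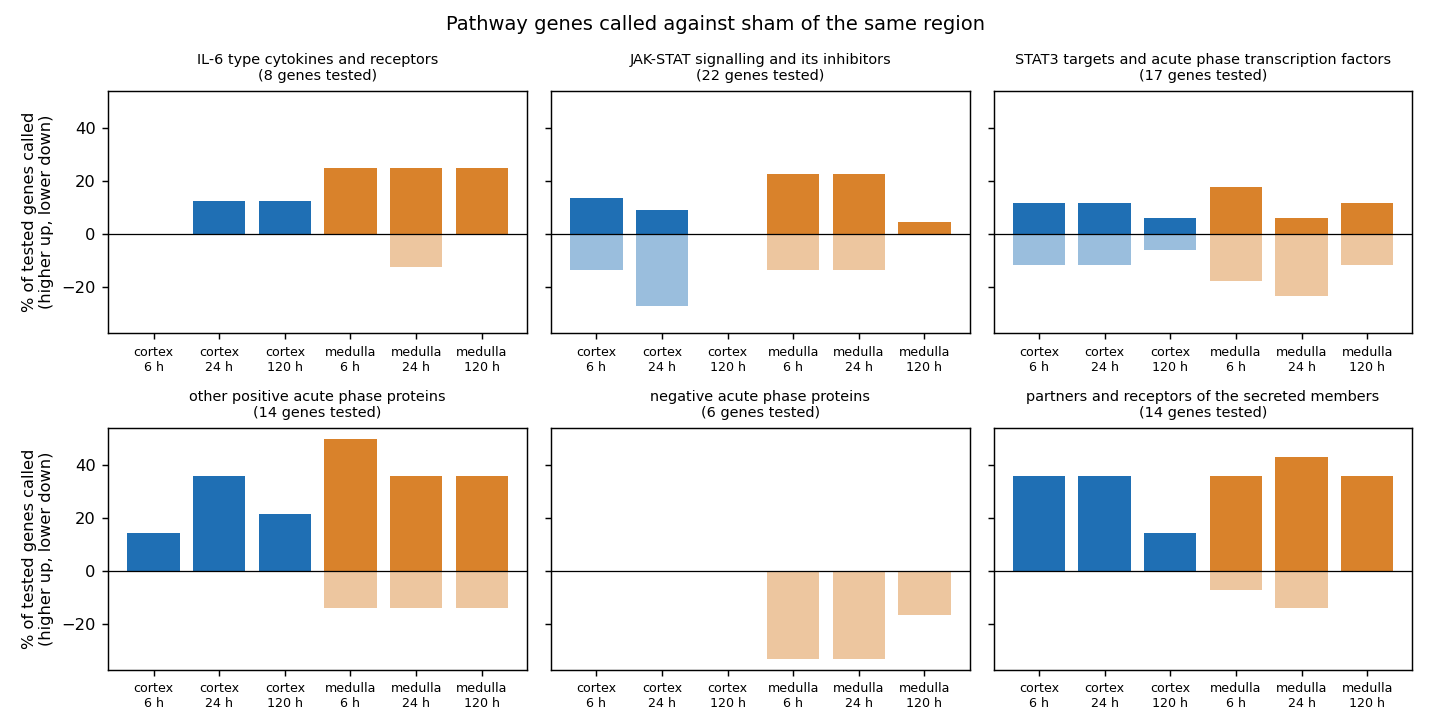
Share of tested pathway genes called against sham of the same region (limma, adjusted p under 0.05), higher drawn upward and lower downward in a paler shade, for 6 gene lists in cortex and medulla at 6, 24 and 120 h. Other positive acute phase proteins reach 7 of 14 higher in medulla at 6 h (17.3% of all probes). Of 6 negative acute phase proteins, 2 are lower in medulla at 6 and at 24 h (16.6% and 15.5% of all probes). The difference between regions was not tested for these lists.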

How the data were processed

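RNA of 24 kidney samples was measured on a bead array with 22523 probes. The deposited intensity values are not normalized, per the file headers. The authors deposited a detection fraction beside each intensity. It is headed as a p-value but rose with intensity (Spearman correlation 0.921), so 1 minus the fraction was used as the detection p. The authors deposited a table of log2 values too, with a normalization method not named in the headers or labels, and it served as an alternative. Intensities were background-corrected with neqc (normexp from the detection p, offset 16), quantile-normalized and put on a log2 scale with limma 3.58.1 in R 4.3.3. Probes with a detection p under 0.05 on 3 or more arrays were kept, 14390 in all. Gene names came from the platform annotation, which gives 13793 probes 1 symbol, 0 several and 8730 none. A model with 8 group means was fitted with lmFit and eBayes (16 residual and 3.34 prior degrees of freedom), with Benjamini-Hochberg adjustment within a comparison over all kept probes. Each pathway gene was read from its brightest probe.

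The 10 genes and all gene lists were chosen with earlier results of these data known. Named pathway genes are up to 4 per list with the largest called difference. The direct comparison of injured regions was added after seeing the data. On simulated data the fit for cortex at 24 h against sham recovered 59% of changes of log2 1 and 96% of changes of log2 2, with 5.49% false calls. The number of arrays limits the precision. Same-numbered arrays of cortex and medulla deviated together (correlation over 0.1) in 3 of 12 pairs, namely in all pairs at 24 h (0.398, 0.262 and 0.357) and in none at the other times. Over all pairs of groups, also of different times, 30 of 84 same-numbered pairs were over 0.1, with correlations from -0.473 to 0.403. The data therefore do not show that the numbers pair the regions, and no label says so. Alternatives were another offset, no background correction, the authors' values, median scaling, other probe filters, other variance settings, blocks and leaving out each array.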

Additional observations from a re-analysis of the deposited data

Results flagged for a closer look

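The response of Hpx differed between the regions at 24 h in the model, with a value of -2.91 (medulla minus cortex). Cortex arrays at 24 h read 7.19, 7.71 and 8.63 and medulla arrays 5.08, 4.82 and 4.91. The value is made of differences from sham that were known when the genes were chosen, so it is given as a description. It lay between -3.23 and -1.53 over the alternatives tried.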

How the results depend on the processing

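No called difference of a member changed sign under the alternatives tried. Among counts of called members, the 2 in cortex at 6 h became 1 with median scaling, with no filter on dim probes and at an adjusted p under 0.01. At that stricter threshold the count was 1 in cortex at 120 h and 4 in medulla at 6 h. With array weights 1 member was called between the sham regions, 2 in the regional response at 24 h, 2 from 24 to 120 h in cortex and 2 in medulla, and 4 and 3 between injured medulla and cortex at 24 and 120 h. With the strict probe filter 1 was called from 24 to 120 h in medulla and 3 between regions at 120 h. With only the arrays of the region 1 was called from 6 to 24 h in cortex. With replicate number as a block, 2 members were called between regions at 120 h, and at 24 h the calls of Hpx and Apcs held. Pathway counts at the stricter threshold were 9, 13 and 4 in cortex and 21, 21 and 13 in medulla at 6, 24 and 120 h, and with array weights 18 in cortex and 32 in medulla at 120 h.

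Leaving out 1 array at a time gave 1 to 3, 4 to 4 and 1 to 3 called members in cortex against sham and 5 to 7, 4 to 6 and 3 to 4 in medulla. It gave 0 to 1 between sham regions, 0 to 1, 1 to 2 and 0 to 0 for the regional response, 2 to 3 and 1 to 2 for the steps in cortex, 0 to 0 and 0 to 1 for those in medulla, and 2 to 5, 2 to 3 and 1 to 3 between injured regions. Pathway counts ran from 9 to 20, 16 to 25 and 3 to 10 in cortex and from 28 to 34, 24 to 34 and 12 to 21 in medulla. The lowest cortex 120 h count came without replicate 2 of that group, and the lowest medulla counts at 6 and 120 h without sham medulla replicate 1. Where a value moved, the cause was not tested. Log differences were smaller on the authors' values, as for Serpina3n in medulla at 6 h (2.13 against 3.39), and dim probes such as Hp and sham Socs3 are limited by the background.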
